A study of Mus musculus with 4 samples.

Results

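The type II keratin cluster of the mouse on chromosome 15, with Krt7, Krt5 and Krt8 and the adjoining type I gene Krt18, was examined for open chromatin in a mammary cell line under 4 hormone conditions. Its members are the DNase-hypersensitive regions that overlap the mm9 window chr15:101150000-101950000. Regions of the 4 libraries that overlapped or touched were joined into sites, which gave 55 sites of 103288 in the whole series. That this window holds the keratin genes is taken from how it was chosen, since no mm9 gene annotation was used here. The window was chosen by measured values: it surrounds a site near 101.337 Mb that the E2 and the Dex+E2 libraries list and the untreated and Dex libraries do not. That site is called the E2-opened site here, and its E2 pattern is therefore a description and not a finding. All values come from 1 library per condition, so that no hormone effect could be tested against a spread between replicates.

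The cells are 7438 cells, a mouse mammary line carrying fluorescently tagged receptors under tetracycline-regulated promoters, GFP-GR for the glucocorticoid receptor (GR) and Cherry-ER for the estrogen receptor (ER). All 4 groups had tetracycline withdrawn for 24 h, which the untreated cells share with the treated ones, and were plated 48 h before the hormone. The groups were untreated, dexamethasone (Dex, a synthetic glucocorticoid) at 100 nM, estradiol (E2, the ligand of ER) at 100 nM and both hormones at 100 nM each, and hormones acted for 30 min. DNase-seq counts the cuts of DNase I along the genome, and a hypersensitive region is a stretch with more cuts than its library's background. MaxD is the maximum and AveD the average tag density of a region on the deposited scale, and a site is called strong here where its MaxD reached 20 in any library.

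Keratins form the intermediate filaments of epithelial cells, which are built as pairs of a type I and a type II protein. Krt8 is the type II partner of the type I protein Krt18 in simple epithelia, including the luminal cells of the mammary gland. Krt7 is a further type II keratin of simple epithelia, and Krt5 marks basal and myoepithelial cells. GR and ER are nuclear receptors that bind DNA when they carry their hormone, and such binding is often accompanied by a gain of DNase sensitivity nearby.

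In the RefSeq gene table of GRCm38.p6, 27 keratin genes, 26 of them protein-coding, follow in order on chromosome 15 from Krt80 to Krt18. This row counts keratin genes only. Protein-coding genes of other kinds were looked for beside the genes named next and at the ends of the row, and not throughout it. Krt7 is number 2 in that row, between Krt80 and Krt87. Krt5 is number 14, between Krt6a and Krt71. Krt8 and Krt18 close the row as numbers 26 and 27, with Krt78 before them and Eif4b, a translation initiation factor gene, after them. The deposited regions are in mm9 and the gene table is in GRCm38.p6, so that regions were not assigned to single genes, and no region is said here to lie at a keratin promoter. Whether a given site of the window, such as the dense ones at its flanks, lies within the keratin row or beside it was not determined. RNA was not analysed here, and the expression of the keratins in these cells is not known from these data.

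The promoters of the 4 genes are shown because ER and GR recognise short core sequences, AGGTCA for ER and many other nuclear receptors and AGAACA for GR. Each sequence runs from 250 bases before to 50 bases after the gene's start, 5′ to 3′ on the gene's strand, from RefSeq in GRCm38.p6, and its positions cannot be set beside those of the mm9 regions. Capitals mark AGGTCA or its complement read backwards, TGACCT.
Krt7 (chr15:101412153-101412452, plus strand): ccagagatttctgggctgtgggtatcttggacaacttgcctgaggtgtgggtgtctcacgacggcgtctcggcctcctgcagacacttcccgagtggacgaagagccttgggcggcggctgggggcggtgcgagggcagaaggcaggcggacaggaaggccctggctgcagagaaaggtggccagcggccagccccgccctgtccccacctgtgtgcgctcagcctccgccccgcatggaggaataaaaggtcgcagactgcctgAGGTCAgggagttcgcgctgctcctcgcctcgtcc
Krt5 (chr15:101712856-101713155, minus strand): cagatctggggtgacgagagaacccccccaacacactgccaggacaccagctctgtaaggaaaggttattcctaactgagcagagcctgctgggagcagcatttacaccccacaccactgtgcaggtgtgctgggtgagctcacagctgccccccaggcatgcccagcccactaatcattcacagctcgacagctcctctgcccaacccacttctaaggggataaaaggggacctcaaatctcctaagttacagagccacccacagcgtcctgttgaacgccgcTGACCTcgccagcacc
Krt8 (chr15:102004293-102004592, minus strand): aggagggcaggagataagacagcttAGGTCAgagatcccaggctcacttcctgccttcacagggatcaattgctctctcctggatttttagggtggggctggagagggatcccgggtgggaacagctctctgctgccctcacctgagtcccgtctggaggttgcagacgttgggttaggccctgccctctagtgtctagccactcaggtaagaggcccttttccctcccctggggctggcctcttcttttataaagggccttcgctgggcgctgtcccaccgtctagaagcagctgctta
Krt18 (chr15:102027966-102028265, plus strand): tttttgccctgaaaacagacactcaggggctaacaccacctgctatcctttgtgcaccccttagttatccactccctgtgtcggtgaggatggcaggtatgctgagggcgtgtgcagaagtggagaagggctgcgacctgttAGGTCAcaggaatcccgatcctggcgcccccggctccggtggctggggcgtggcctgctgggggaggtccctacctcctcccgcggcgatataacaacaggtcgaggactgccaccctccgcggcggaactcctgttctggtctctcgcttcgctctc

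Each of these 4 promoters held AGGTCA once when both strands were searched. In the Krt8 promoter it began 225 bases before the start, and in the Krt18 promoter 108 bases before it. In the Krt7 and Krt5 promoters it lay after the start, from base 16 and from base 35. Among the 16 keratin genes of the row with a promoter in the table, 5 held it, and 5340 of all 32851 promoters (16.3%) did. AGAACA was found in the Krt18 promoter alone of the 4, in 3 of the 16 keratin promoters and in 19.0% of all promoters. The full palindromes, AGGTCA or AGAACA followed by 3 bases and its own complement read backwards, were in none of the 16 keratin promoters and in 0.0213% and 0.00913% of all promoters. The letters describe these windows only, and receptor binding was not analysed here.

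The E2-opened site, at chr15:101337379-101338203 with E2 and chr15:101337375-101338278 with both hormones, had a MaxD of 26.8 (95% interval 22.5 to 31.7) with E2 and 44.5 (38.5 to 51.1) with both hormones. The smallest step of MaxD in a library was read as 1 tag, and these intervals are exact Poisson limits for the 134 and 196 tags at the summits, which cover counting error only. Its AveD was 5.82 with E2 and 10.5 with both hormones, and its width 824 and 903 bp. The starts of the region in both lists lay 4 bp apart and the ends 75 bp. The weakest region listed anywhere in the window had a MaxD of 5.10 in the untreated and 6.37 in the Dex library. Both lists lacking the site therefore held much weaker regions elsewhere in the window, although a missing region only fell short of its library's own threshold.

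After E2 the E2-opened site ranked 7 of the 24 sites that this library lists in the window, next to the dense site at 101.930 Mb with 26.2. After Dex+E2 it ranked 8 of 32. By AveD its ranks were 8 and 6. Across the series 1362 sites (1.32% of all) were listed with E2 and with both hormones only, and the window held 2 of them. Since the window was chosen around the E2-opened site, this count and the ranks of the site are descriptions. It was number 3 of the 1362 by MaxD with E2 and number 2 with both hormones. The median site of that kind had a MaxD of 6.60 with E2 and 8.17 with both hormones, and a width of 472 and 547 bp.

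The deposited MaxD of the E2-opened site was 1.66-fold higher (1.33 to 2.08) in the Dex+E2 than in the E2 library. The libraries as wholes differed by nearly as much, since the median MaxD over the 20687 sites found in all 4 lists was 1.51-fold higher with both hormones than with E2. Relative to these medians the site was at 1.10-fold (0.876 to 1.38), an interval that holds 1. With AveD the relative ratio was 1.26. By MaxD relative to the medians, a difference between co-treatment and E2 alone was not detectable at this site beyond counting error. As deposited, the interval lay above 1. The 1362 sites listed with E2 and with both hormones only had a median ratio of 1.21 as deposited and 0.797 relative to the medians.

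The other site listed with E2 and with both hormones only, near 101.758 Mb, lay 420 kb further along the chromosome. It was weak, with a MaxD of 6.80 (4.71 to 9.50) with E2 and 11.6 (8.61 to 15.2) with both hormones. Its ratio of Dex+E2 to E2 was 1.70 as deposited and 1.13 (0.715 to 1.79) relative to the medians, much as at the E2-opened site. Its AveD was 1.58 and 2.44, and its width 402 and 730 bp.

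**Figure D1:**
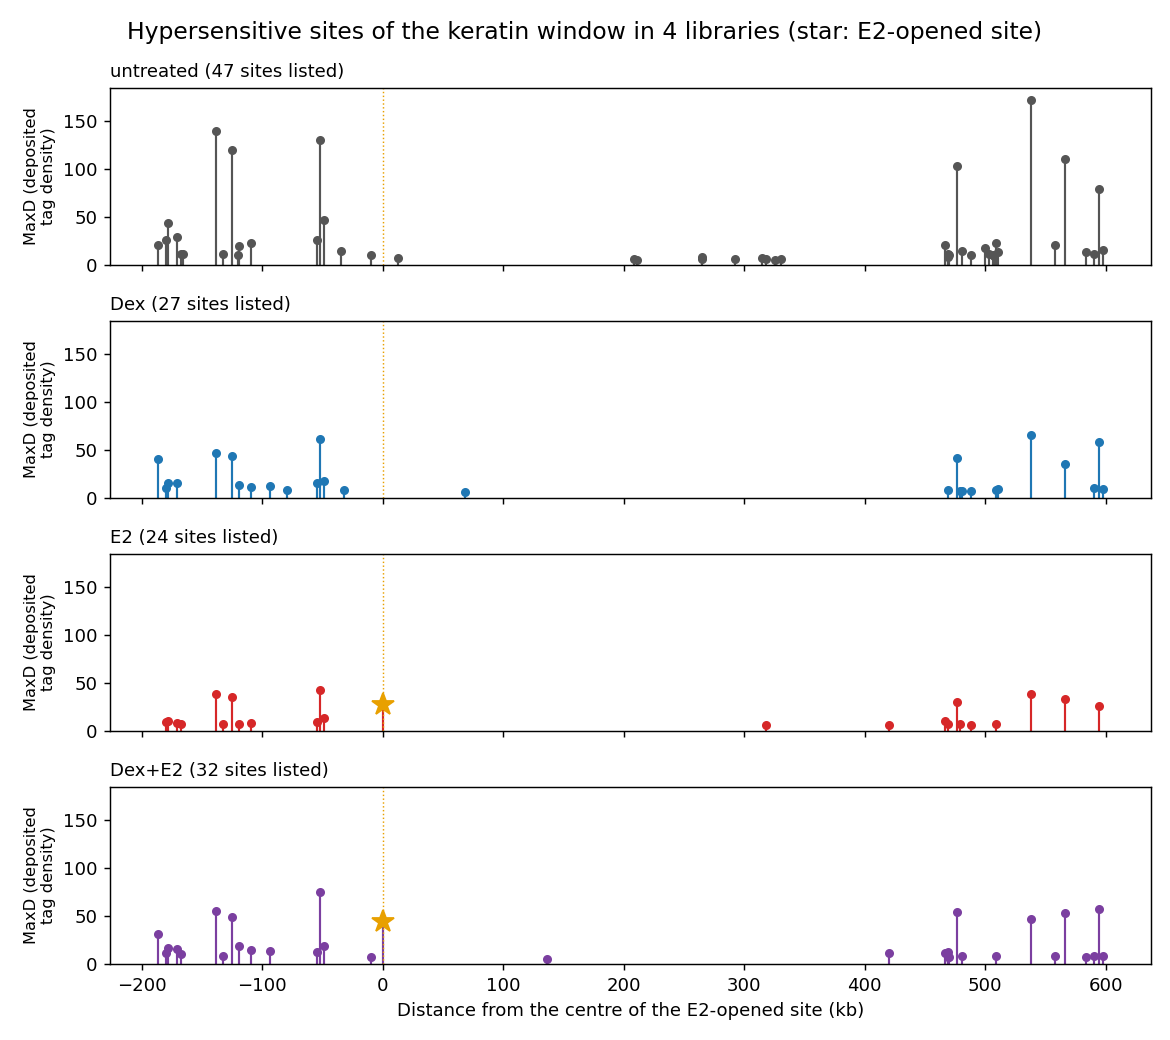
MaxD (vertical axis, deposited tag density) of every site of the keratin window against its distance in kb from the centre of the E2-opened site, 1 panel per library and 1 stem per site. Dense sites stand on both sides of a stretch of 466 kb in which no site reached a MaxD of 20, and the E2-opened site (star) is listed in the E2 and Dex+E2 panels only, at 26.8 and 44.5.

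The sites fell into 2 dense groups with a sparse stretch between them. From the E2-opened site to the next strong site at 101.804 Mb, 466 kb held 13 sites and none of them was strong. The median gap between strong sites on chromosome 15 was 27.8 kb, and 43 of 855 such gaps were longer than this one. The length of the gap depends on the E2-opened site, by which the window was chosen and which the untreated and Dex lists lack. The strong site before it, at 101.288 Mb, lay 47.4 kb away. Before the stretch, up to and including the E2-opened site, lay 21 sites of which 11 were strong, and after it 21 sites of which 7 were strong. The window as a whole had 22.5 strong sites per Mb, against 8.53 on chromosome 15 and 6.46 over all chromosomes. It was therefore rich in strong sites at its flanks and empty of them across 58.2% of its length.

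Within the sparse stretch the highest MaxD of any site ranged from 5.10 to 11.6, with a median of 6.38. Of its 13 sites, 11 were in 1 list only, against 58.8% in the series. In the untreated list alone, which is the longest list, were 9 of the 13, against 26% in the series. These 9 had untreated MaxD values of 6.89 at 101.350 Mb, 6.63 at 101.546 Mb, 5.61 at 101.549 Mb, 5.87 at 101.602 Mb, 8.16 at 101.603 Mb, 5.87 at 101.630 Mb, 6.89 at 101.653 Mb, 5.10 at 101.663 Mb and 6.38 at 101.669 Mb. Their widths ran from 251 to 557 bp. The Dex library alone listed a site at 101.406 Mb (MaxD 6.37, AveD 0.903, 342 bp) and the Dex+E2 library alone a site at 101.474 Mb (5.67, 1.36 and 251 bp). The site at 101.656 Mb was listed untreated (6.12) and with E2 (6.80). The summits of these 12 sites held between 20 and 34 tags, near the lowest that the lists hold in the window.

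Of the 55 sites, 16 (29.1%) were in all 4 lists, against 20% in the series. In 1 list only were 20 sites (36.4%, against 58.8%). The untreated library alone listed 16 sites (29.1%, against 26%), the strongest of them at 101.837 Mb with a MaxD of 17.9. The Dex library alone listed 3, at 101.258, 101.306 and 101.406 Mb, with MaxD values of 8.08, 8.08 and 6.37 (5.45%, against 14.3% in the series). The Dex+E2 library alone listed 1 site (1.82%, against 11.5%), and the E2 library alone listed 0, where 6.97% of the series was of that kind. Strong sites numbered 18 (32.7%, against 16.1%), and 14 of these 18 were in all 4 lists.

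Sites in each list numbered 47 untreated, 27 with Dex, 24 with E2 and 32 with both hormones. The whole lists held 65879, 51251, 35496 and 50061 regions, so that the window followed the lengths of the lists except that it held fewer sites with Dex than with both hormones. Covered length was 38890 bp untreated, 25068 bp with Dex, 16098 bp with E2 and 26676 bp with both hormones. By medians over the sites in all lists, the E2 library had the narrowest regions and the lowest density and the untreated library the widest and highest, as they had the shortest and the longest list. The Dex library had the longer list and wider regions than the Dex+E2 library but the lower median MaxD and AveD.

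Of the 16 sites in all lists, 7 were very dense, with an untreated MaxD of 79.6 or more, and stood apart from the other 9, which reached 46.9 at most. The densest was chr15:101875594-101876787, with a MaxD of 172 (159 to 186) untreated, 65.9 with Dex, 38.6 with E2 and 47.6 with both hormones. Its AveD was 33.8, 13.3, 9.53 and 10.2 in the same order, and its width 1193, 1153, 984 and 975 bp. It was the densest site of the window untreated and with Dex, but not in the E2 and Dex+E2 libraries. Relative to the library medians it was at 0.540-fold (0.460 to 0.631) of the untreated value with both hormones and at 0.689-fold (0.572 to 0.828) of the Dex value.

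The site chr15:101903746-101904725, 27.0 kb further on, had MaxD values of 110.2 untreated, 35.3 with Dex, 33.2 with E2 and 53.1 with both hormones. Its AveD was 26.6, 7.66, 8.48 and 14.5, and its width 979, 939, 730 and 804 bp. Here the Dex+E2 value was 1.43-fold (1.16 to 1.78) the Dex value relative to the medians. These neighbouring dense sites thus differed in opposite directions between the Dex+E2 and Dex libraries, by more than counting error but by less than 2-fold.

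The very dense site nearest to the E2-opened site, chr15:101285021-101286560, lay 52.0 kb before it, centre to centre. Its MaxD was 130.3 untreated, 61.5 with Dex, 42.6 with E2 and 75.8 with both hormones, the highest of the window in the last 2 libraries. AveD was 25.3, 10.9, 9.17 and 15.6, and width 1511, 1460, 1177 and 1480 bp. Relative to the medians it stayed between 0.964-fold and 1.18-fold in the 5 comparisons, and so followed the libraries as wholes.

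The sites chr15:101198478-101201492 and chr15:101211760-101213691 lay 10.3 kb apart. The former had MaxD values of 139.5 untreated, 46.8 with Dex, 39.2 with E2 and 55.6 with both hormones, and covered 3014, 2711, 1730 and 2097 bp, in 2 regions each in the E2 and Dex+E2 libraries. The latter had 120.1, 43.3, 35.8 and 49.7, with AveD values of 31.3, 11.6, 10.3 and 15.5 and widths of 1931, 925, 760 and 788 bp. Both held the same order of libraries, untreated, Dex+E2, Dex and E2 from high to low. The step from Dex to Dex+E2 was within counting error, at 1.19-fold (0.979 to 1.44) and 1.15-fold (0.936 to 1.41) as deposited.

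At chr15:101814220-101815507 the MaxD was 103 untreated, 42.1 with Dex, 30.6 with E2 and 54.0 with both hormones, with widths of 1287, 1168, 952 and 1164 bp. The widest site, chr15:101930046-101935250, had 79.6 untreated, 58.3 with Dex, 26.2 with E2 and 57.6 with both hormones. Its regions covered 5051 bp untreated, 4967 bp with Dex and 4090 bp with both hormones, but 788 bp with E2. Relative to the medians it was 1.5-fold (1.26 to 1.78) higher with Dex than untreated and 1.45-fold (1.17 to 1.81) higher with both hormones than with E2. By MaxD relative to the medians, both libraries with Dex thus lay above the corresponding library without it, by less than 2-fold. AveD was 15.2 untreated, 8.39 with Dex, 6.98 with E2 and 9.44 with both hormones. The medians of AveD over the sites in all lists were 6.81, 3.40, 2.70 and 3.86. Relative to these, Dex+E2 did not lie above E2. The site joined 2, 2, 1 and 3 regions in the same order, so that its summits may differ between libraries. The E2 library alone lacked the wide regions.

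The other 9 sites of all lists were weaker, from 11.2 to 46.9 untreated. At 101.288 Mb MaxD was 46.9 untreated, 17.6 with Dex, 13.6 with E2 and 18.6 with both hormones. At 101.159 Mb it was 43.9, 15.7, 10.4 and 17.2 in the same order. At both sites the order was untreated, Dex+E2, Dex and E2 from high to low. Its step from Dex to Dex+E2 was within counting error, at 1.06-fold (0.759 to 1.47) and 1.10-fold (0.779 to 1.56) as deposited.

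Sites between 19 and 30 untreated included 101.167 Mb, with a MaxD of 29.3 untreated, 15.2 with Dex, 8.60 with E2 and 15.7 with both hormones. At 101.283 Mb the values were 26.3, 15.2, 9.40 and 12.9, and at 101.158 Mb 25.5, 10.5, 9.40 and 11.3. At 101.229 Mb they were 23.0, 11.8, 8.20 and 14.7, and at 101.846 Mb 22.7, 8.33, 7.20 and 8.62. The last of these was 779 bp wide untreated and 251 bp with E2. At 101.218 Mb the values were 19.4, 13.2, 7.60 and 18.8, and the region was 1242 bp wide with both hormones against 669 bp untreated. Its Dex+E2 value was 1.64-fold (1.10 to 2.47) the E2 value by MaxD relative to the medians. The difference was smaller by AveD, which was 2.33 with E2 and 3.69 with both hormones, where the series medians were 2.70 and 3.86.

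On the deposited scale the E2 library was lowest at 16 of these 16 sites, and 15 of 16 lay below the untreated value in each hormone library. The exception was 101.806 Mb, with a MaxD of 11.2 (8.15 to 15.1) untreated, 8.33 with Dex, 7.80 with E2 and 12.7 with both hormones. Across the series 18637 of 20687 sites were below untreated in each hormone library, and E2 was lowest at 16507. The order of the libraries is thus shared with the series and is not particular to the keratin window. The median over the series was 30.1 untreated, 14.7 with Dex, 10.2 with E2 and 15.4 with both hormones, and the same medians over the 16 sites were 45.4, 16.7, 12.0 and 18.7. With 1 library per condition, a lower density under hormone and a difference between libraries cannot be told apart.

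**Figure D2:**
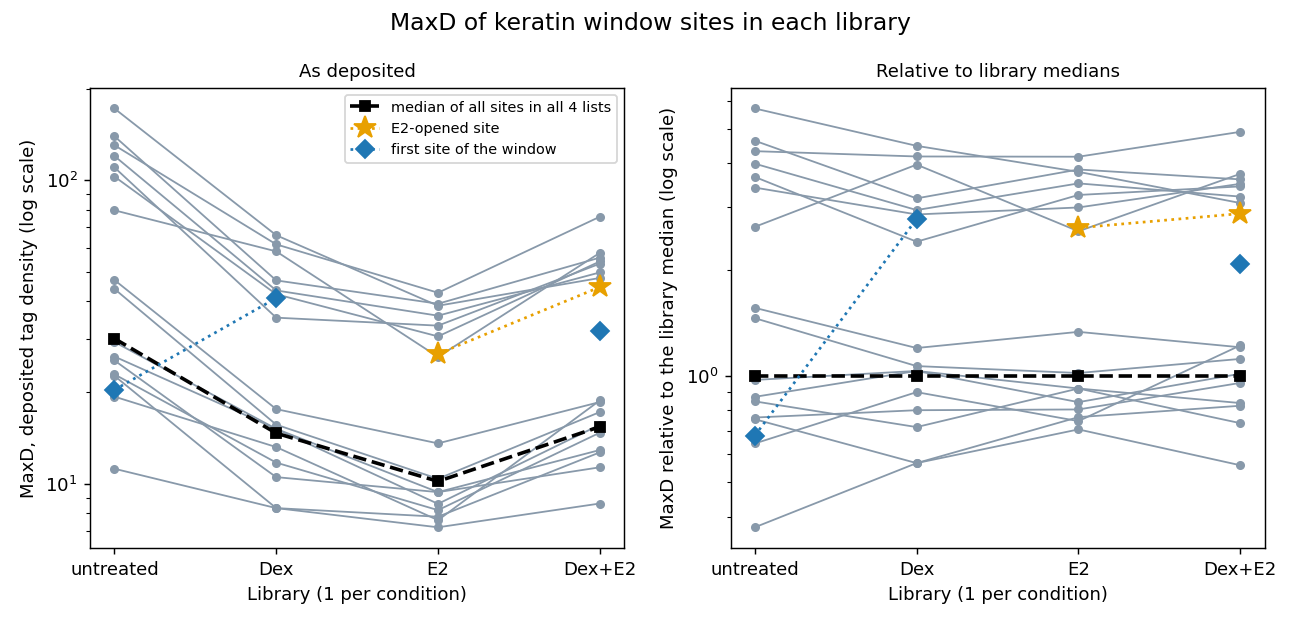
MaxD (log scale) in the 4 libraries of the 16 keratin window sites found in all lists (grey), the median of all such sites in the series (black), the E2-opened site (star) and the site at 101.151 Mb (diamond); left as deposited, right divided by each library's median. The grey lines fall from untreated to E2 along with the black one and stay between 0.540-fold and 2.21-fold of their untreated value on the right, while the diamond rises from untreated to Dex in both panels.

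Ratios are therefore given relative to the median over the 20687 sites, and a site was called past 2-fold on that scale. For Dex over untreated, 0 of the 16 sites were 2-fold higher (6.69% of all) and 0 were 2-fold lower (0.595%). For E2 over untreated, 1 was higher (7.89%) and 0 lower (0.445%). For Dex+E2 over untreated, 1 was higher (7.19%) and 0 lower (1.58%). For Dex+E2 over Dex the counts were 0 and 0 (1.84% and 0.889%), and for Dex+E2 over E2 likewise 0 and 0 (1.78% and 1.04%). These counts of 0 and 1 among 16 sites are near what the shares of the series come to.

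The 1 site past 2-fold was 101.806 Mb in both cases, at 2.05-fold (1.30 to 3.23) with E2 and 2.21-fold (1.46 to 3.36) with both hormones. Its summit held 44 tags untreated, and on the deposited scale its ratios were 0.695 (0.440 to 1.09) and 1.13 (0.749 to 1.72). It was the weakest of the 16 sites in untreated cells, and a site this weak has a ratio only where the hormone library still lists it. Its AveD was 2.22 untreated, 2.81 with Dex, 2.40 with E2 and 4.10 with both hormones.

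Medians of the relative log2 ratios over the 16 sites were −0.25 for Dex over untreated, −0.13 for E2 over untreated and −0.07 for Dex+E2 over untreated, the last of which was 0.059 with AveD. They were 0.10 for Dex+E2 over Dex and 0.09 for Dex+E2 over E2. Over all 20687 sites the same medians lay between −0.03 and 0.01. The SD among the 16 sites was 0.40, 0.36 and 0.52 for the comparisons with untreated cells. The first 3 comparisons share the untreated library and are not independent of one another.

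Denser untreated sites had lower relative ratios to untreated. The 9 sites with an untreated MaxD of at least 40 had a median log2 ratio of −0.38 for Dex, and the 7 weaker ones 0.08. For all sites of the series these medians were −0.14 and 0.10. Across the 16 sites, which share their libraries, Spearman's rho between untreated MaxD and this ratio was −0.54, against −0.44 over the series. Since the untreated density enters both quantities, this is a description and no result about the window.

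**Figure D3:**
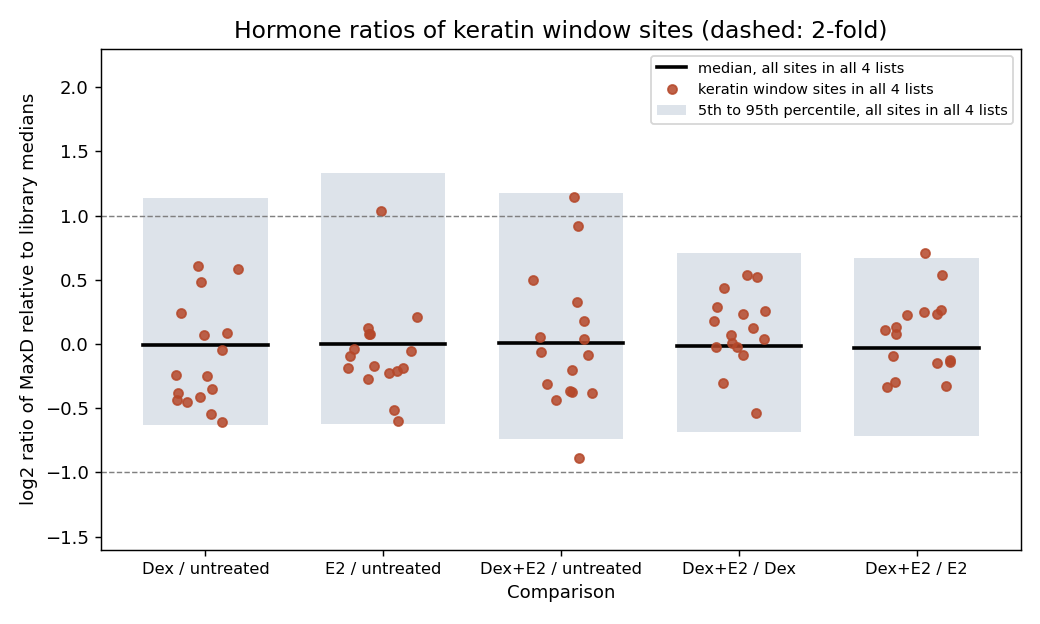
Log2 ratios of MaxD relative to library medians (vertical axis) for 5 comparisons, with 1 point per keratin window site found in all 4 lists, over the range from the 5th to the 95th percentile (bars) and the median (line) of all such sites in the series. At most 1 of the 16 points passes the upper dashed line at 2-fold in any comparison, and none the lower.

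A site with higher values in both Dex libraries stood at the start of the window, chr15:101150616-101151716. Its MaxD was 20.4 (16.2 to 25.4) untreated, 40.9 (34.9 to 47.6) with Dex and 32.0 (26.9 to 37.7) with both hormones, and the E2 library did not list it. Its AveD was 5.75, 7.73 and 6.64, and its width 627, 1100 and 857 bp. Of the strong sites in both lists it was the only one with a deposited MaxD above the untreated one with Dex, where the series as a whole was lower.

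Relative to the medians this site was 4.11-fold (3.13 to 5.43) higher with Dex and 3.06-fold (2.31 to 4.08) higher with both hormones than untreated. As deposited the ratios were 2.0 (1.53 to 2.65) and 1.57 (1.18 to 2.09). Of the 22 window sites listed both untreated and with Dex it alone was past 2-fold, where 11.8% of 31784 such sites in the series were. A higher ratio than its own was found at 347 sites (1.09%). Of the 6024 sites with its own list pattern, missing with E2 only, 229 had a higher ratio, and their median was 1.39. By AveD the relative differences were smaller, at 5.75 untreated, 7.73 with Dex and 6.64 with both hormones, where the series medians were 6.81, 3.40 and 3.86. Between Dex+E2 and Dex it was at 0.745-fold (0.591 to 0.938). It lies 616 bp inside the edge of the window and 187 kb from the E2-opened site.

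A site listed with Dex and with both hormones only was chr15:101244435-101245146, the only one of its kind among the 55 sites (1.92% of the series). Its MaxD was 12.2 (9.09 to 16.1) with Dex and 14.3 (11.0 to 18.3) with both hormones, its AveD 2.32 and 3.08, and its width 639 and 700 bp. The site at 101.817 Mb was listed with Dex (6.86) and with E2 (7.20), but in neither other library.

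Sites listed both untreated and with E2 numbered 21, of which 3 were past 2-fold higher (14.4% of 24486 in the series). Beside 101.806 Mb these were 101.656 Mb, at 3.28-fold (1.89 to 5.78), and 101.170 Mb, at 2.05-fold (1.30 to 3.23), with MaxD values of 11.2 untreated, 7.80 with E2 and 10.9 with both hormones. The deposited intervals of these 2 ratios, 0.640 to 1.96 and 0.440 to 1.09, held 1. A site has such a ratio only where the E2 library lists it, and the lowest MaxD of that list in the window was 6.40. The E2 median was 0.339 of the untreated one, so that weak untreated sites enter the comparison only at high relative ratios. These relative ratios of weak sites are therefore descriptions. For Dex+E2 over untreated, 2 of 28 sites were past 2-fold (10.7% of 32130), namely 101.151 and 101.806 Mb.

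Beside the E2-opened site, the strong sites at 101.804 and 101.896 Mb were missing from the Dex list. At 101.804 Mb MaxD was 20.4 (16.2 to 25.4) untreated, 10.2 with E2 and 12.0 with both hormones, with AveD values of 5.65, 2.75 and 3.13 and widths of 709, 602 and 616 bp. At 101.896 Mb it was 20.7 untreated and 9.07 with both hormones, and the E2 library lacked the site as well. Both sat just above the strong limit in untreated cells and near 10 in the hormone libraries that list them.

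The remaining weaker sites had a MaxD under 20 throughout. In 3 lists but not with E2 were 101.818 Mb (14.0 untreated, 7.10 with Dex and 8.62 with both hormones), 101.928 Mb (11.0, 10.3 and 9.07) and 101.936 Mb (15.6, 9.55 and 9.07). At 101.205 Mb, missing with Dex, MaxD was 11.5 untreated, 7.40 with E2 and 8.62 with both hormones, and at 101.826 Mb, missing with both hormones, it was 10.7 untreated, 7.84 with Dex and 6.40 with E2. In each of these the untreated value was the highest, as in most of the series.

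Beside 101.896 Mb, the untreated and Dex+E2 libraries alone shared 101.328 Mb (10.5 and 7.03), which is the nearest neighbour of the E2-opened site at 9.98 kb, 101.807 Mb (8.16 and 7.03), 101.808 Mb (10.2 and 7.26) and 101.922 Mb (13.5 and 7.94). At 101.848 Mb only the untreated (13.8) and Dex (9.31) libraries listed a site. Untreated cells alone had 101.172 Mb (11.5), 101.217 Mb (10.2), 101.303 Mb (14.3), 101.837 Mb (17.9), 101.841 Mb (11.0), 101.844 Mb (9.95) and 101.845 Mb (9.44) outside the sparse stretch. Between 101.814 and 101.846 Mb, 4 of 7 weak sites were of this last kind, against 26% of all sites in the series. The untreated list is also the longest, so this small count is a description.

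Widths of the 16 sites of all lists had medians of 1129.5 bp untreated, 982 bp with Dex, 703.5 bp with E2 and 854.5 bp with both hormones. Over the series the medians were 959, 789, 634 and 746 bp. Median AveD over the 16 sites was 8.22, 3.71, 3.21 and 4.59 in the same order, and 6.81, 3.40, 2.70 and 3.86 over the series. These 16 window sites were thus somewhat wider and denser than the median site in each library, with the same order of libraries. Just outside the window, the nearest site before it, chr15:101146112-101146756, had a MaxD of 18.4 untreated, 9.80 with Dex and 15.7 with both hormones. The nearest after it, chr15:101966344-101967207, had 50.2 untreated, 33.5 with Dex, 18.4 with E2 and 36.5 with both hormones.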

How the data were processed

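DNase-seq of 4 conditions, 1 library each, was taken from the deposited lists of hypersensitive regions, 1 list per library. The submitters' processing notes name mm9 as build and CASAVA 1.8, without a role for it. Aligner and region caller: not given in the sources used here. As to values, per the file headers, MaxD and AveD are tag densities, a signal whose scaling by the authors is not stated. Z scores and p-values were deposited per region and were not compared between libraries. MaxD values were whole multiples of 1 step within 0.02 tags in 100% of regions, with steps of 0.255 untreated, 0.245 with Dex, 0.200 with E2 and 0.227 with both hormones. The step was read as 1 tag, which gave 20 to 675 tags at the summits of the window. If the scaling total was common, relative depth was 1.04, 1.28 and 1.12 in the hormone libraries against 1 untreated.

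Overlapping or touching regions were joined. A site took the highest MaxD of its regions in a library, the AveD of that region and their summed width. Positions are printed as deposited, and whether they count from 0 or from 1 is not stated. Intervals are exact 95% Poisson limits, and conditional binomial ones for ratios. Alternatives changed joining, list length, density measure, scaling and fold limit. Sites named were the E2-opened one, all with a MaxD of at least 20 and all past 2-fold in a comparison that isolates a hormone; the rest are given by value after these were seen. Window, members and lists were chosen with earlier results of these data known. The functions were tested on simulated data. Python 3.11.15, NumPy 2.4.6, pandas 2.3.3 and SciPy 1.17.1 were used.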

Additional observations from a re-analysis of the deposited data

How the results depend on the processing

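No paired analysis was possible because each condition had 1 library. The window held 52 sites when regions within 150 bp were joined, 56 when joining needed a 50% overlap and 45 with lists of equal length, against 55. Equal lengths could only remove regions from the longer lists and left the E2 list of 35496 regions whole. They could therefore not add the E2-opened site to another list, and that it stayed in 2 lists is no check. The Dex+E2 over E2 ratio of the E2-opened site was 1.66 as deposited and 1.10 relative to the medians. Scaling moved the values most: as deposited, the median log2 ratio of the 16 shared sites over untreated was −1.28 for Dex, −1.69 for E2 and −1.04 with both hormones, 0.17 for Dex+E2 over Dex and 0.69 for Dex+E2 over E2. On that scale 10, 15 and 9 sites were 2-fold lower than untreated with Dex, E2 and Dex+E2, 0 were higher with E2 and 0 with both hormones, and 2 were higher with both hormones than with E2. The shift equals that of the library medians by construction. A 1.5-fold limit gave 2 higher and 1 lower for Dex, 1 lower for E2, 2 higher and 1 lower for Dex+E2 over untreated, and 1 higher for Dex+E2 over E2. AveD gave 1 higher for Dex and 1 lower for E2 over untreated. Its medians over untreated were −0.22 for Dex, −0.081 for E2 and 0.059 with both hormones, the last of opposite sign to the −0.07 of MaxD, and 0.12 for Dex+E2 over Dex. No error of these medians was estimated, and the cause was not tested. Of 56 alternative values in all, 32 kept within their limits and 24 did not, where any change of a median in the 2nd decimal counts. Summits of 20 to 51 tags, as in the sparse stretch, limit what presence in 1 list can show.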
